A study of Arabidopsis thaliana with 72 samples.

Results

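The daily course of gene expression in mesophyll isolated from short day seedlings of Arabidopsis thaliana was followed on 12 of the 72 arrays of the series, those whose titles name short days and mesophyll. All plants were Col-0 wild type seedlings raised on Murashige and Skoog medium with sucrose. The short day groups had 8 h of light and 16 h of darkness. Mesophyll was harvested at ZT0, ZT4, ZT8, ZT12, ZT16 and ZT20 on day 9 and again on day 10, where ZT counts hours from lights on and lights went off at ZT8. The labels do not say on which side of the light switch the ZT0 and ZT8 harvests were taken. Mesophyll and vasculature were freed from the leaf with enzymes and sonication, whereas whole leaf was not separated. The other sets used for comparison were short day whole leaf, short day vasculature and long day mesophyll (16 h light, 8 h dark), each with 12 arrays at the same times. RNA was hybridised to Affymetrix Arabidopsis Gene 1.0 ST arrays, and values are given here as log2(intensity + 1). No label says that the arrays of 1 time came from separate cultures. The p-values rest on the spread between 2 arrays on successive days, which may in part be technical, and for fitted rhythms also on their misfit.

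Mesophyll is the chlorophyll-rich tissue of the leaf blade, where light is captured, carbon is fixed, and starch is laid down by day and broken down at night. In plants a circadian clock, light and the sugar status of the leaf together time the daily rise and fall of transcripts. Genes of light harvesting are known to peak early in the day, GIGANTEA late in the day, and enzymes of starch breakdown towards dusk.

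The tissue label was set against marker genes. The summed intensity of 6 mesophyll and photosynthesis markers ranged from 5359 to 10088 over the 12 mesophyll arrays, against 1577 to 3951 in short day vasculature. In short day whole leaf it was 5877 to 10102, which overlaps with the range of mesophyll. LHW, a transcription factor gene of the vascular lineage, had 2.5 to 10.8 intensity units in mesophyll and 43.6 to 97.9 in vasculature, and the ranges did not overlap. SWEET11, a sucrose exporter of the phloem parenchyma, had a median log2 value of 8.51 in mesophyll, 10.3 in whole leaf and 11.6 in vasculature, so the signal of this gene was lower in mesophyll but present. OPS, the other measured phloem marker, was near the bottom of the scale in mesophyll and whole leaf, with medians of 1.66 and 1.63, and had 2.71 in vasculature. FMA, the guard cell regulator, had a median of 1.94 in mesophyll and 3.92 in whole leaf. The summed intensity of 7 wound-response genes was 3918 to 5740 in mesophyll, against 16.8 to 25.6 in whole leaf, and none of the 7 had a rhythm called by limma in mesophyll (1 at an unadjusted p under 0.05). Their mean log2 value lay between 8.18 and 9.20 on the 12 arrays. Array medians of the whole series lay between 3.29 and 3.77 intensity units. Of 28583 probe sets, 21827 passed a filter on low values and were tested, of which 12140 were listed with 1 gene and 9056 with none. In bulk tissue, fewer cells of a type and less RNA per cell cannot be told apart.

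A 24-hour cosine was fitted to each probe set over the 12 arrays, and its amplitude, the height of the fitted peak above the mean level, is given in log2 units. On log2(intensity + 1) the changes of dim genes are understated. The residual of this fit holds a profile's departure from a cosine as well as the spread between days. A profile that repeats closely on both days can therefore miss the rhythm call because of its shape. By limma's moderated F test, 2609 of 21827 probe sets (12.0%) had a rhythm at a Benjamini-Hochberg adjusted p under 0.03, and 2016 (9.24%) had in addition an amplitude of at least 0.5. The median amplitude was 0.728 among the called probe sets and 0.170 over all tested. Peak times fitted to day 10 and to day 9 separately lay within 4 h of each other for 2608 of the 2609, with a median gap of 0.664 h. Over all tested probe sets, 60.9% met that limit. The call was made on both days together and so favours probe sets whose days agree, which makes this no independent check. The SE of the peak time had a median of 0.677 h among the called, so peak times are read to about 1 h.

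**Figure D1:**
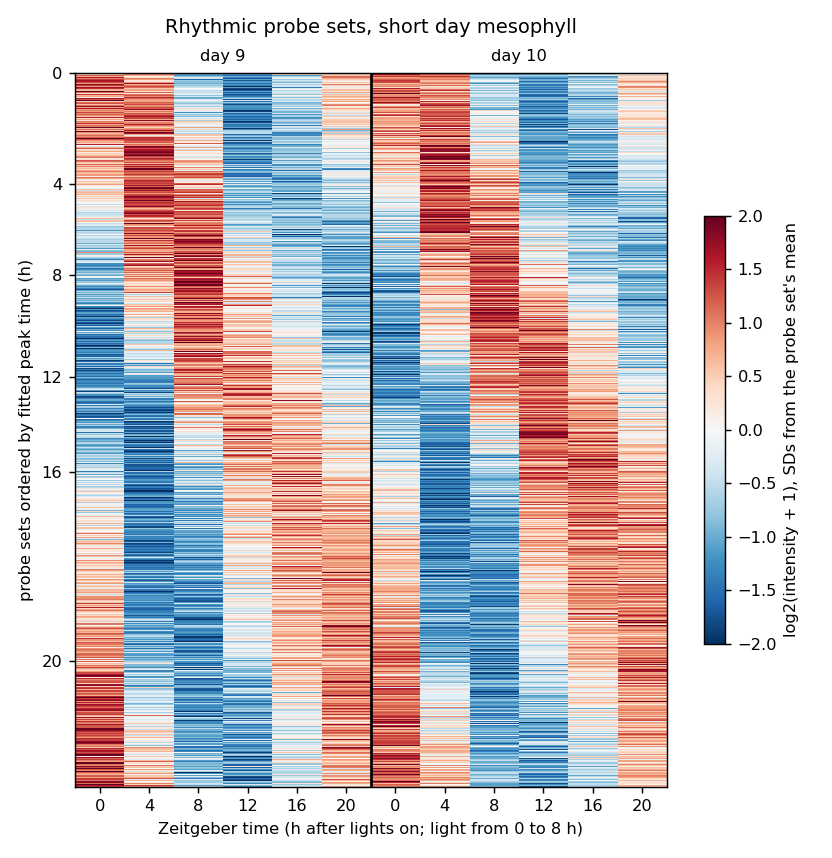
The 2609 rhythmic probe sets of short day mesophyll, each row scaled to its own mean and SD over the 12 arrays and ordered by fitted peak time, with the 6 times of day 9 on the left and of day 10 on the right. Red bands (high values) run diagonally in both days, from ZT0 at the top and bottom edges through ZT4 and ZT8 to the night.

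Peaks fell in every part of the day. In 4 h classes centred on the harvest times, 500 probe sets peaked around ZT0, 333 around ZT4, 376 around ZT8, 345 around ZT12, 489 around ZT16 and 566 around ZT20. The fullest 1 h bin began at ZT18, in the dark, and held 217 probe sets (8.32%), while the emptiest began at ZT11 with 68 (2.61%). Amplitudes were largest in the class around ZT0, with a median of 0.919, and smallest around ZT16, with a median of 0.619.

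The called changes were not spread evenly over the 6 intervals. A term for each time, tested without assuming a cosine, was called for 2541 probe sets (11.6%) at an adjusted p under 0.05 with a range of time means of at least 1. Of these, 1761 (69.3%) had their highest mean at ZT0, ZT4 or ZT8. The most frequent pairing of highest and lowest mean was ZT8 with ZT0, in 404 probe sets, and ZT4 with ZT12 came next with 323. Differences between neighbouring times were called at an adjusted p under 0.05 and a size of at least 1, and neighbouring steps share the arrays of a time, so they are not independent. At ZT4 against ZT0, 1153 probe sets (5.28%) changed, 524 higher (2.40%) and 629 lower (2.88%). At ZT8 against ZT4 there were 656 (3.01%), 316 higher (1.45%) and 340 lower (1.56%). At ZT12 against ZT8, the first 4 h of darkness, there were 922 (4.22%), 372 higher (1.70%) and 550 lower (2.52%).

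The later night had fewer calls, but each step had its own adjustment, so the counts are not of like power. WLIM2a had an SE of 0.572 at each step. Its difference of 2.32 at ZT4 against ZT0 was called (limma adjusted p = 0.046). That of -2.89 at ZT0 against ZT20 was not (adjusted p = 0.107). The median absolute difference over all tested probe sets was 0.209, 0.175 and 0.2 in the steps from ZT0 to ZT12. In the later steps it was 0.148, 0.134 and 0.139. At ZT16 against ZT12, 49 probe sets (0.224%) changed, 39 higher (0.179%) and 10 lower (0.0458%). At ZT20 against ZT16 there were 71 (0.325%), 62 higher (0.284%) and 9 lower (0.0412%). At ZT0 against ZT20 there were 106 (0.486%), 45 higher (0.206%) and 61 lower (0.279%). Of all step calls, 92.4% fell in the ZT0 to ZT12 part of the day. The excess of lower calls at ZT4 turned under quantile normalization, with 598 higher and 560 lower, and that at ZT8 with the day of harvest as a block, with 425 higher and 418 lower, and with the spread of all 72 arrays, with 584 and 517. Single arrays moved the counts. Without the day 9 ZT4 array the ZT4 step had 733 calls and the ZT8 step 426. The ZT12 step had 512 to 553 without the day 9 ZT8, day 9 ZT12 or day 10 ZT12 array. The ZT16 step had 9 to 32 without the ZT0, ZT4 or ZT12 array of either day or the day 9 ZT16 array, the ZT20 step 26 to 41 without either ZT16 array or the day 9 ZT20 array, and the ZT0 step 36 without the day 9 ZT0 array or either ZT20 array. With the day of harvest as a block, the ZT16 step had 93 calls and the ZT0 step 164. In each of these refits the 3 steps from ZT0 to ZT12 still had more calls than the other 3.

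**Figure D2:**
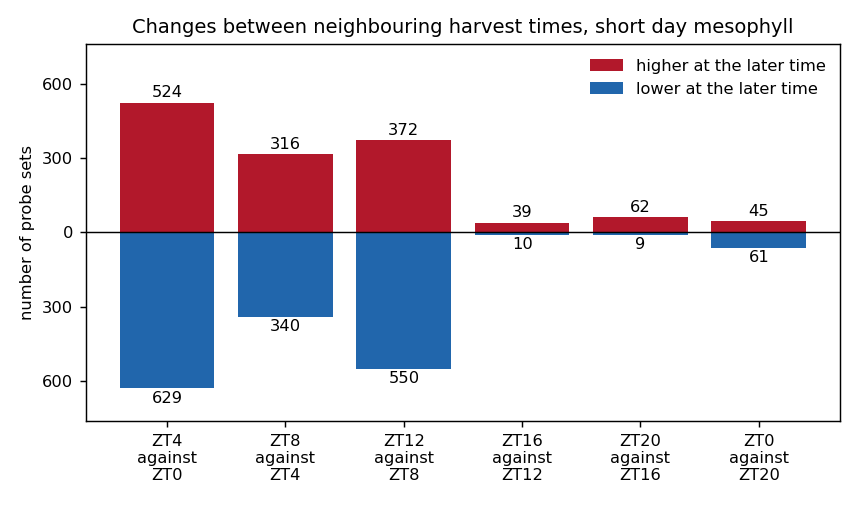
Number of probe sets called higher (red, upward) or lower (blue, downward) at the later of 2 neighbouring harvest times in short day mesophyll. The 3 steps between ZT0 and ZT12 each hold 656 to 1153 calls and the 3 later steps 49 to 106.

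A plain cosine did not describe every profile. The test of what a 24-hour cosine leaves over was called for 409 probe sets (1.87%), of which 195 were not called rhythmic. Among the 409, 92 (22.49%) had only 1 of the 6 time means above the midpoint of their range and 115 (28.12%) had 2. The largest class, 118 (28.85%), had 4, while 65 had 3 and 19 had 5. Among all time-called probe sets 9.88% had 1, 24.99% had 2 and 34.08% had 4. Of all time-called probe sets with a single high time, 99 had it at ZT4, 108 at ZT8 and 34 at ZT0, against 7, 1 and 2 at ZT12, ZT16 and ZT20. The count of 409 was 174 to 272 without any 1 of 10 of the arrays (all but ZT8 and ZT16 of day 10) and 856 with the day of harvest as a block.

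Clock and photoperiod genes were few on the list that could be matched to a tested probe set with 1 gene: 6 of 53 listed clock genes and 3 of 30 listed photoperiod and flowering genes. The rest are not analysed here. Of the 6 clock genes, GI and FIO1 were called rhythmic, and of the 3 photoperiod genes SNZ. GI (GIGANTEA, AT1G22770), which links the clock to photoperiodic flowering, read 2.09, 6.91, 8.82, 2.52, 2.1 and 2.44 at ZT0, ZT4, ZT8, ZT12, ZT16 and ZT20 on day 10, and 2.05, 6.85, 9.18, 2.19, 1.90 and 2.03 on day 9. Only the ZT4 and ZT8 arrays were high, and they did not overlap with any other time. GI stood 4.81 higher at ZT4 than at ZT0 (limma adjusted p = 1.2e-05), another 2.12 higher at ZT8 than at ZT4 (adjusted p = 0.000562) and fell by 6.65 at ZT12 relative to ZT8 (adjusted p = 3.4e-06), the largest called fall of that step among single-gene probe sets. Its amplitude was 3.39 ± 0.61 (SE) with a fitted peak at 6.46 ± 0.69 h, and its departure from the cosine was called (limma adjusted p = 0.000127).

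COR27 (AT5G42900), a cold- and light-regulated gene tied to the clock, was low at ZT4, a time when GI was high. It read 6.42, 1.69, 9.24, 9.62, 9.04 and 7.58 from ZT0 to ZT20 on day 10, and 5.28, 1.76, 8.66, 8.55, 7.68 and 7.25 on day 9. Both ZT4 arrays were near the bottom of the scale, and the next lowest value was 5.28. The rise at ZT8 against ZT4 was 7.23 (limma adjusted p = 0.000216), and the range of time means, 7.36, was the largest among single-gene probe sets called beyond the cosine. That call was lost without either ZT4 array (highest limma adjusted p 0.0525), and the cosine itself missed its threshold (adjusted p = 0.0401).

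CCL (AT3G26740), named CCR-like after a clock-controlled gene, switched on between ZT0 and ZT4. It had 4.91, 9.35, 10.77, 10.67, 9.97 and 8.81 on day 10, and 4.97, 9.10, 10.64, 10.43, 9.92 and 8.65 on day 9. ZT0 was the single low time on both days, 4.28 below ZT4 and 3.79 below ZT20 (limma adjusted p = 6.31e-06 and 3.5e-05). RR16 (AT2G40670), a type-A response regulator of cytokinin signalling, instead peaked in the night, at 17.5 ± 0.55 h with an amplitude of 1.84 ± 0.26. It was highest at ZT16 and ZT20, with 5.76 and 6.02 on day 10 and 4.64 and 4.18 on day 9, and 1.54 to 3.83 elsewhere.

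HYH (AT3G17609), a bZIP factor of light signalling related to HY5, rose before dawn. Its values were 4.42, 2.31, 1.66, 1.84, 2.24 and 3.9 on day 10 and 4.1, 2.45, 1.79, 2.29, 2.17 and 3.63 on day 9, so that ZT20 and ZT0 stood above all other times. The step at ZT20 against ZT16 was 1.56 (limma adjusted p = 0.0115), a call lost without any ZT16 or ZT20 array (highest adjusted p 0.0991), and at ZT4 HYH had dropped by 1.88 relative to ZT0 (adjusted p = 0.000863). SNZ (AT2G39250), an AP2-like repressor of flowering, peaked at 23.9 ± 0.64 h with an amplitude of 1.58 ± 0.26 and had its lowest values at ZT12, 2.79 on day 10 and 2.03 on day 9. FIO1 (AT2G21070), a methyltransferase gene in which mutants have a longer period, had a smaller rhythm of 0.593 ± 0.078 peaking at 15.6 h.

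The other measured clock and photoperiod genes did not pass the rhythm test. TIC (AT3G22380) had an amplitude of 0.271 (limma adjusted p = 0.0326), and with the day of harvest as a block it passed (adjusted p = 0.0167). LIP1 (AT5G64813) had 0.453 (limma adjusted p = 0.0790) and XCT (AT2G21150) 0.0446. SMZ (AT3G54990) and FD (AT4G35900), flowering genes, had amplitudes of 0.0976 and 0.0455 at levels of 1.73 to 2.3, near the bottom of the scale. In a wider list of clock and light signalling genes, 7 of 29 measured were called rhythmic, with a median amplitude of 0.453 over the 29, beside 12.0% and 0.170 over all tested probe sets.

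**Figure D3:**
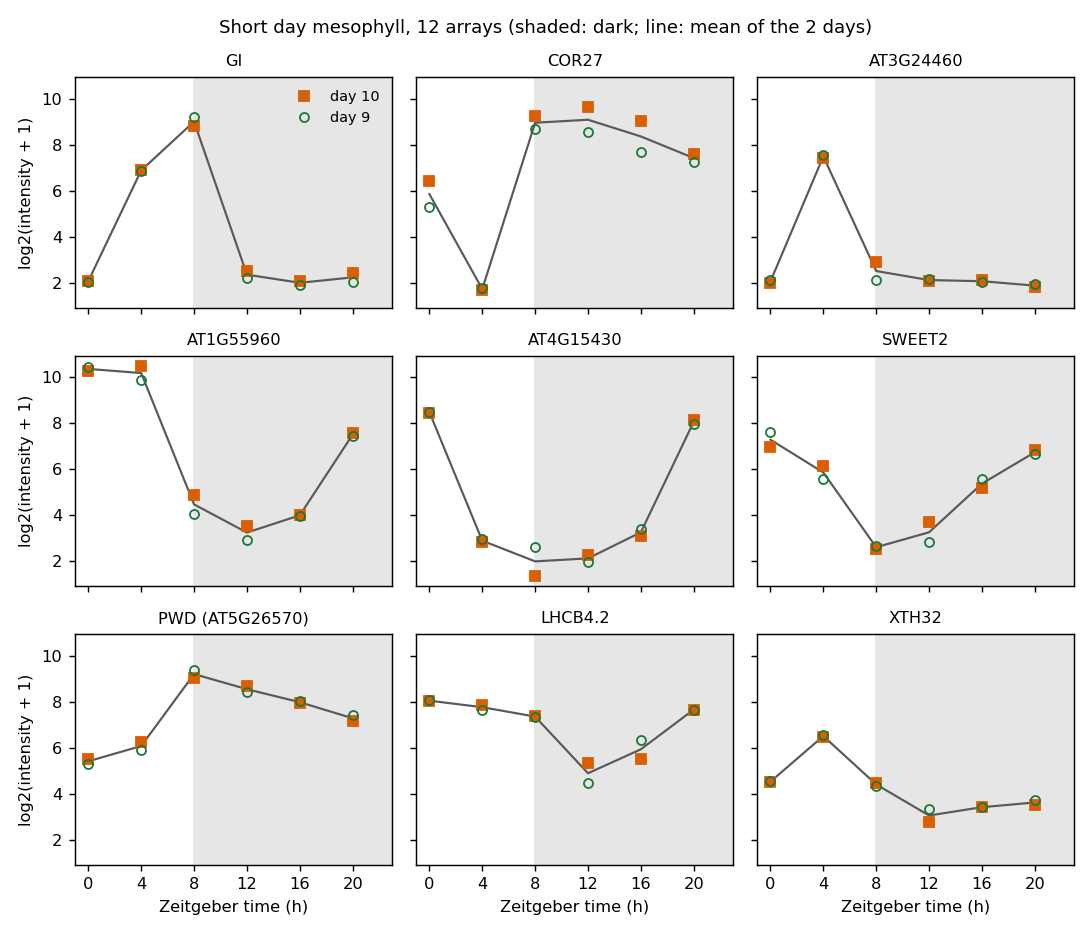
Values of 9 genes on the 12 arrays of short day mesophyll against Zeitgeber time, as log2(intensity + 1), with filled squares for day 10, open circles for day 9 and a line through the mean of both. GI is high only at ZT4 and ZT8 and AT3G24460 only at ZT4, while COR27 is low only at ZT4 and falls to about 1.7 there.

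Most of the nuclear photosynthesis genes called rhythmic had fitted peaks in the 4 h classes around ZT0, ZT4 and ZT8, which reach into the dark on both sides. Of 10 measured genes of light harvesting and the photosystems (67 listed), 7 were called rhythmic, beside 12.0% of all probe sets, with fitted peaks between 1.2 and 4.8 h and amplitudes between 0.476 and 1.47. The median amplitude over the 10 was 0.515, beside 0.170 over all. In a wider list of 48 measured nuclear photosynthesis and thylakoid genes, 17 were called (35.4%, beside the 12.0%), of which 5 peaked around ZT0, 7 around ZT4, 4 around ZT8 and 1 around ZT20. At ZT4 against ZT0, 8 of the 48 were higher (2.40% over all) and none lower, and at ZT12 against ZT8 8 were lower (2.52% over all) and none higher. Both lists were drawn up with earlier results of these data known.

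LHCB4.2 (AT3G08940), a minor antenna protein of photosystem II, had the largest amplitude of these, 1.47 ± 0.22 with a peak at 1.16 ± 0.58 h. It read 8.03, 7.86, 7.38, 5.32, 5.52 and 7.65 from ZT0 to ZT20 on day 10, and 8.05, 7.65, 7.32, 4.45, 6.34 and 7.65 on day 9. It was low only at ZT12 and ZT16, and the fall at ZT12 against ZT8 was 2.46 (limma adjusted p = 0.00338). By ZT20, still in darkness, both arrays were back at 7.65.

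LHB1B2 (AT2G34420), a major light-harvesting protein, varied less on a higher level. Its values were 11.49, 11.69, 11.43, 10.97, 10.21 and 10.27 on day 10 and 11.16, 11.70, 11.41, 10.77, 9.95 and 10.45 on day 9, with every array of ZT0 to ZT8 above every array of ZT12 to ZT20. The amplitude was 0.811 ± 0.070 and the peak 4.84 ± 0.33 h. PSBY (AT1G67740) of photosystem II and PSAN (AT5G64040) of photosystem I peaked at 2.06 and 3.39 h with amplitudes of 0.627 and 0.618. The PSAN call was lost without the day 10 ZT16 array (limma adjusted p = 0.035). RCA (AT2G39730), the activase of Rubisco and the single called gene of 3 measured Calvin cycle genes, had 0.315, and that call was lost without any of 5 arrays (ZT4 and ZT12 of both days and day 10 ZT16, highest limma adjusted p 0.045).

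CaS (AT5G23060), a thylakoid calcium-sensing protein, was highest around dawn. It had 9.97, 9.13, 8.33, 7.50, 8.63 and 9.64 on day 10 and 9.52, 9.32, 8.65, 7.69, 8.43 and 9.29 on day 9, with an amplitude of 0.998 ± 0.097 and a peak at 23.7 h. Its values already declined between ZT0 and ZT8 in the light and climbed again from ZT12, although of the 6 steps only that of ZT12 against ZT8 had an adjusted p under 0.05 (0.0407), with a fall of 0.89. TRXF2 (AT5G16400), an f-type thioredoxin of the chloroplast, was highest at ZT8, with 7.66 on day 10 and 7.45 on day 9. It fell by 1.96 at ZT12 relative to ZT8 (limma adjusted p = 0.00107).

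None of 63 measured probe sets of plastid-encoded genes was called rhythmic by limma, and 1 had an unadjusted p under 0.05, against 29.3% of all tested. Their median amplitude was 0.0400, beside 0.170 over all tested, and the highest was 0.401 for psbN, with a lowest limma adjusted p of 0.123 in the list. Plastid transcripts largely lack poly(A) tails, and the labels do not say how the labelling reaction was primed.

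Enzymes of chlorophyll and tetrapyrrole synthesis did not share 1 profile. Of 7 measured (35 listed), HEME2 and CHLM were called rhythmic. CHLM (AT4G25080), the magnesium protoporphyrin methyltransferase, peaked at 22.7 ± 0.56 h, before lights on, with an amplitude of 0.469. HEME2 (AT2G40490), a uroporphyrinogen decarboxylase, peaked at 4.04 h with 0.659, and its call was lost without any 1 of 8 arrays (ZT0, ZT4, ZT12 and ZT16 of day 9 and ZT8, ZT12, ZT16 and ZT20 of day 10). PORB, the light-dependent protochlorophyllide oxidoreductase, had a pair of high phases. Its time means were 7.3, 9.3, 10.5, 8.1, 9.4 and 9.9 from ZT0 to ZT20, so ZT0 and ZT12 were low on either side of the day. The time test was called (limma adjusted p = 0.000867), as was the departure from the cosine, while the cosine itself was not (adjusted p = 0.841).

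Of 8 measured starch genes (47 listed), 4 were called rhythmic, beside 12.0% of all probe sets, with a median amplitude of 0.614 over the 8. The called genes were APL3 and SBE2.2, which act in synthesis, and PWD and DPE1, which act in breakdown. APL3 (AT4G39210), a large subunit of ADP-glucose pyrophosphorylase, read 1.91, 3.64, 4.25, 2.25, 2.25 and 2.04 on day 10 and 1.87, 3.82, 3.56, 2.05, 1.92 and 2.06 on day 9. The ZT4 and ZT8 arrays stood above all others, and the level was 1.84 higher at ZT4 than at ZT0 and dropped by 1.76 at ZT12 relative to ZT8 (limma adjusted p = 0.00186 and 0.00333). The cosine call of APL3 was lost without any ZT4 or ZT8 array (highest limma adjusted p 0.0396). SBE2.2 (AT5G03650), a starch branching enzyme, moved the same way on a higher level, 1.19 higher at ZT4 than at ZT0 and falling by 1.24 at ZT12 relative to ZT8 (limma adjusted p = 0.00208 and 0.00274), with its peak at 5.92 ± 0.44 h.

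PWD and DPE1 rose late in the light period. PWD (AT5G26570), the phosphoglucan, water dikinase, read 5.51, 6.23, 9.03, 8.68, 7.93 and 7.14 from ZT0 to ZT20 on day 10, and 5.31, 5.90, 9.36, 8.4, 8.01 and 7.41 on day 9. ZT0 and ZT4 were the low times on both days and ZT8 the highest. The rise at ZT8 against ZT4 was 3.13 (limma adjusted p = 6.79e-05), the differences between neighbouring night times were -0.57 to -0.70 and not called, and the level fell by another 1.87 at ZT0 relative to ZT20 (adjusted p = 0.0045), a call lost without the day 9 ZT0 array (adjusted p = 0.0509). DPE1 (AT5G64860), the plastid disproportionating enzyme that acts on maltotriose, ran parallel, with 4.00, 4.47, 7.26, 6.83, 6.23 and 5.16 on day 10 and 3.09, 4.22, 7.14, 6.35, 5.24 and 4.64 on day 9. It rose by 2.86 at ZT8 against ZT4 (limma adjusted p = 0.00435), and its fitted peak, 11.4 ± 0.57 h, lay within the error of that of PWD, 12.0 ± 0.59 h. The fitted peaks of APL3 and SBE2.2, 6.45 and 5.92 h, lay in the light. Those of PWD and DPE1 lay in the dark, although the highest measured value of both genes was at ZT8 on each day.

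Sugar genes covered both day and night. ATSPS4F (AT4G10120), a sucrose phosphate synthase, was highest at ZT4, with 9.26 on day 10 and 9.31 on day 9, and stood 3.74 above ZT0 (limma adjusted p = 0.000792). Its cosine call (amplitude 1.65, peak 6.38 h) was lost without any 1 of 6 arrays (ZT4 and ZT8 of both days, day 10 ZT16 and ZT20, highest limma adjusted p 0.0472). TMT1 (AT1G20840), a monosaccharide carrier of the vacuolar membrane, instead had 6.11, 4.37, 6.57, 8.45, 8.02 and 7.97 on day 10 and 5.56, 4.86, 7.18, 8.42, 8.32 and 7.62 on day 9. It was high on every night array and lowest at ZT4, with a peak at 15.0 ± 0.41 h and an amplitude of 1.84 ± 0.20.

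SWEET2 (AT3G14770), a vacuolar glucose transporter, was in turn lowest at dusk. It read 6.94, 6.13, 2.54, 3.69, 5.18 and 6.83 on day 10, and 7.62, 5.58, 2.67, 2.82, 5.56 and 6.65 on day 9. The fall at ZT8 against ZT4 was 3.25 (limma adjusted p = 0.00107), and the later differences between neighbouring times were 0.54 to 2.11, of which none was called. Its amplitude of 2.36 ± 0.21 was the largest of the 16 measured SWEET and sugar transport genes (35 listed), of which SWEET2 and TMT1 were called rhythmic. The median amplitude over the 16 was 0.170, the same as over all tested probe sets.

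Of 32 measured genes of wall loosening, 5 were called rhythmic (15.6%), which is near the 12.0% over all probe sets, and their median amplitude of 0.154 was near the 0.170 over all. Of the 5, 4 had peaks around ZT4. XTH32 (AT2G36870), a xyloglucan endotransglucosylase/hydrolase, read 4.51, 6.47, 4.45, 2.78, 3.41 and 3.5 on day 10 and 4.53, 6.53, 4.35, 3.33, 3.41 and 3.73 on day 9. ZT4 was the highest time on both days, 1.98 above ZT0, and XTH32 fell by 2.1 at ZT8 relative to ZT4 (limma adjusted p = 0.000598 and 0.000409). The expansin genes EXPA8 (AT2G40610) and EXPB1 (AT2G20750) had amplitudes of 1.90 and 1.89 and peaks at 2.46 and 2.43 h, both with their highest value at ZT4 on each day. EXPB3 (AT4G28250), a further expansin, peaked at 4.21 h with 0.937, and that call was lost without any 1 of 9 of the 12 arrays (highest limma adjusted p 0.0826). GID1A (AT3G05120), a gibberellin receptor, peaked near ZT12 instead, at 12.4 ± 0.72 h with an amplitude of 0.918.

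COR15B and Fes1B, of the cold and chaperone lists, were highest at the end of the light period. Of 20 measured cold and late embryogenesis genes 1 was called rhythmic, COR15B (5% of the list, beside 12.0% over all probe sets), and 4 were called by the time test (20%, beside 11.6%). COR15B (AT2G42530), a chloroplast protein best known from cold-treated plants, read 2.33, 3.65, 7.65, 4.42, 3.12 and 2.35 on day 10 and 2.04, 2.49, 7.10, 4.87, 1.90 and 2.02 on day 9. ZT8 was the highest time on both days, 4.31 above ZT4 (limma adjusted p = 0.00142), and by ZT12 the level had dropped by 2.73 (adjusted p = 0.0122), a call lost without the day 10 ZT8 array or either ZT12 array (highest adjusted p 0.0841). Fes1B (AT3G53800), an exchange factor of Hsp70 chaperones, was also highest at ZT8, with 7.02 on day 10 and 6.56 on day 9, and lowest at ZT0, with 1.92 and 1.87. Its amplitude was 2.16 ± 0.25 and its peak 9.14 ± 0.44 h. Of 17 measured heat shock and co-chaperone genes 3 were called, and of 5 on a shorter heat list none, with 1 at an unadjusted p under 0.05.

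Several further genes of known function had large rhythms. WLIM2a (AT2G39900), an actin-bundling LIM protein, was highest at ZT8 and ZT12, with 8.58 and 8.19 on day 10 and 8.47 and 7.67 on day 9, and lowest at ZT0, with 3.88 and 2.3. Its amplitude was 2.35 ± 0.36 and its peak 11.6 ± 0.59 h. SCPL49 (AT3G10410), a serine carboxypeptidase-like protein, was low only at ZT0 and ZT4. It had 4.27 and 6.05 there on day 10 and 3.97 and 5.62 on day 9, and between 8.00 and 9.10 on all other arrays. The drop at ZT0 relative to ZT20 was 3.89 (limma adjusted p = 8.46e-05), the largest called fall of that step among single-gene probe sets. AAPT2 (AT3G25585), an enzyme of phospholipid synthesis, read 7.88, 5.10, 2.69, 3.9, 5.45 and 6.64 on day 10 and 7.83, 5.24, 2.97, 3.43, 5.66 and 6.76 on day 9. It declined through the light period and climbed through all of the night, and each of its 6 steps had an adjusted p under 0.05 (0.000115 to 0.049). The rise at ZT12, 0.84, was under the size limit of a call. That at ZT16 lost its call without the day 9 ZT16 array, and those at ZT20 and ZT0 without any 1 of 10 and of 8 arrays (highest limma adjusted p 0.118, 0.402 and 0.25). The rise at ZT20 was also not called with the day of harvest as a block (adjusted p = 0.0513). AAH (AT4G20070), allantoate amidohydrolase of nitrogen recycling, peaked at 21.6 ± 0.50 h with 1.43 ± 0.19.

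Of 46 measured UDP-glycosyltransferase genes 8 were called rhythmic (beside 12.0% over all probe sets), with amplitudes of 0.415 to 1.35. UGT88A1 (AT3G16520) peaked at 23.2 h and UGT73B2 (AT4G34135) at 19.4 h. Of 14 genes of endoplasmic reticulum folding 2 were called (14.3%), of 10 autophagy genes 1, of 14 genes of mitochondrial amino acid and lipid catabolism 1 (7.14%) and of 6 cell division genes 2 (33.3%). ALDH6B2 (AT2G14170), a mitochondrial dehydrogenase of branched-chain amino acid breakdown, was higher at ZT8 than at ZT4 by 1.27 (limma adjusted p = 0.0116) and peaked at 12.3 h. The step was not called without the day 9 ZT4 array or either ZT8 array (highest limma adjusted p 0.0918). By the same limma test none was called of 3 iron genes, 2 sulfur and glucosinolate genes, 4 flavonoid genes, 12 wound and early stress genes and 5 sugar starvation genes. At an unadjusted p under 0.05 these lists had 0, 0, 1, 1 and 3 genes, beside 29.3% of all probe sets.

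Among single-gene probe sets called rhythmic the largest amplitudes, apart from that of GI, belonged to loci that the annotation used here gives without a symbol. Probe sets listed with no gene included 4 with larger amplitudes still, up to 4.51. AT1G55960 read 10.29, 10.48, 4.89, 3.55, 4.02 and 7.57 from ZT0 to ZT20 on day 10, and 10.42, 9.87, 4.05, 2.94, 3.97 and 7.43 on day 9. It was high at ZT0 and ZT4 and fell by 5.71 at ZT8 relative to ZT4 (limma adjusted p = 4.94e-05), the largest called fall of that step among single-gene probe sets, within the light period. The amplitude was 4.01 ± 0.27 and the peak 0.873 ± 0.26 h. Its rise of 2.85 at ZT0 against ZT20 (limma adjusted p = 0.00615) was lost as a call without the day 9 ZT0 array or either ZT20 array (highest adjusted p 0.0668).

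AT4G15430 also rose between ZT16 and ZT20 but was low again by ZT4. It read 8.46, 2.83, 1.36, 2.28, 3.1 and 8.15 on day 10, and 8.49, 2.96, 2.62, 1.97, 3.41 and 7.97 on day 9. ZT20 and ZT0 were the only high times. The rise at ZT20 against ZT16 was 4.81 (limma adjusted p = 0.00068) and the fall at ZT4 relative to ZT0 5.58 (adjusted p = 8.19e-05), each the largest of its step and direction among single-gene probe sets. AT5G35970 rose by nearly as much at ZT20 against ZT16, by 4.80 (limma adjusted p = 0.0107), but stayed high through ZT4 with 9.72 on day 10 and 9.88 on day 9. Without either ZT16 array or the day 9 ZT20 array that step was no longer called (highest limma adjusted p 0.107). AT5G48490, with an amplitude of 3.34, peaked at 0.0805 h and AT3G56290, with 2.72, at 0.891 h.

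Pulses at 1 time marked other loci. AT3G24460 read 2.01, 7.41, 2.88, 2.07, 2.1 and 1.82 on day 10 and 2.11, 7.57, 2.14, 2.16, 2.03 and 1.94 on day 9, so both ZT4 arrays stood above all others, of which the highest was 2.88. It was 5.43 higher at ZT4 than at ZT0 and fell by 4.98 at ZT8 relative to ZT4 (limma adjusted p = 1.2e-05 and 1.63e-05). AT1G71000 was confined in the same way to ZT8, with 7.68 on day 10 and 7.30 on day 9, and 1.64 to 3.43 on the other 10 arrays. It fell by 5.55 at ZT12 relative to ZT8 (limma adjusted p = 0.000393). In short day whole leaf and vasculature the mean levels of AT1G71000 were 1.68 and 1.59, near the bottom of the scale. Among single-gene probe sets AT1G70820 had the largest rise of the ZT4 step, 5.93 (limma adjusted p = 2.23e-05), with 9.14 on day 10 and 8.68 on day 9 at ZT4 and 2.95 and 3.00 at ZT0, and had no value under 5.63 on the later arrays.

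Loci with peaks around dusk and in the early night had other shapes. AT1G56300 peaked at 9.43 ± 0.35 h with an amplitude of 3.2, AT4G30650 at 9.18 ± 0.56 h with 2.80, AT3G62550 at 11.6 ± 0.47 h with 2.84 and AT4G34950 at 12.4 ± 0.64 h with 2.81. AT4G34950 rose by 5.12 at ZT8 against ZT4 (limma adjusted p = 1.69e-05) to 8.99 on day 10 and 9.45 on day 9, and had no value under 6.28 from then to ZT20. Among single-gene probe sets AT4G36850 rose most in the first dark interval, by 4.82 at ZT12 against ZT8 (limma adjusted p = 0.00103), followed by AT4G27450 with 4.31 (adjusted p = 0.00331). AT1G62510 and AT2G23840 peaked in the light period, at 4.85 and 5.23 h, with amplitudes of 2.49 and 2.44. AT5G40450 peaked at 15.9 h with 2.19 and AT5G23380 at 19.6 h with 2.16.

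Of the 12 changes chosen by size from the 3 steps after ZT12, 7 lost their call without at least 1 of the arrays, against none of the 12 from the first 3 steps. AT1G73480 rose by 2.68 at ZT16 against ZT12 (limma adjusted p = 0.000671), with 6.91 on day 10 and 7.15 on day 9 at ZT16, and 4.25 and 4.45 at ZT12. That call held without each array in turn. The rise of AT1G31540, 2.42 (limma adjusted p = 0.0374), was lost without any 1 of the 12 arrays. The falls of AT4G17140, 1.40, and AT5G37360, 1.36, were lost without the ZT12 array of either day or the day 9 ZT16 array, and that of AT4G17140 also without the day 10 ZT16 array. At ZT20 against ZT16 the largest falls among single-gene probe sets were those of AT4G16146, by 1.8, and AT4G34950, by 1.56, lost without any 1 of 7 and of 8 arrays (highest limma adjusted p 0.272 and 0.312). At ZT0 against ZT20 AT3G55240 rose by 3.89 (limma adjusted p = 0.00112), with 5.09 on day 10 and 5.99 on day 9 at ZT0 and 1.71 and 1.59 at ZT20.

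Day 10 differed from day 9 in fewer probe sets than changed in any of the first 3 steps. It differed in more than changed in any of the later 3 steps, which had 49, 71 and 106. These counts are not of like power, and each test had its own adjustment. The day test contrasts all 12 arrays, and a step only the arrays of neighbouring times. For GI the SE was 0.106 for the day difference and 0.189 for a step. Beside a term for each time, 146 probe sets (0.669%) passed the same limits as the steps, 98 higher (0.449%) and 48 lower (0.220%) on day 10. AT4G22470 was 2.82 ± 0.54 higher on day 10 (limma adjusted p = 0.0262) and AT3G28530 2.01 ± 0.36 higher (adjusted p = 0.0216), while AT1G18320 was lower by 2.55 ± 0.58 and AT1G73510 by 2.52 ± 0.58. AT4G22470 had 4.13 to 7.67 on the day 10 arrays and 1.91 to 3.82 on the day 9 arrays, without overlap. None of the 4 had a called rhythm. All 4 calls were lost without any 1 of 8 to 10 arrays, and the count fell to 61 without either ZT16 array and to 83 without either ZT20 array. The 7 wound-response genes had mean log2 values of 8.20 to 9.20 on day 10 and 8.18 to 8.93 on day 9, and their part in the differences between days was not tested.

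Rhythms were next compared with the 3 most similar sets. All 3 comparisons use the same 12 mesophyll arrays, so they are not independent of each other. The difference was tested as the interaction of set with cosine and sine at an adjusted p under 0.05. Its size is given as a vector difference, the distance in log2 units between the fitted cosine and sine pairs. The residual of this fit, too, holds departures from a cosine. In the other sets 7584 (34.7%) probe sets were rhythmic in short day whole leaf, 3163 (14.5%) in short day vasculature and 2899 (13.3%) in long day mesophyll. Short day mesophyll had a median residual SD of 0.207, against 0.128 in whole leaf, 0.148 in vasculature and 0.179 in long day mesophyll. Amplitudes of at least 0.5, called or not, were found for 3632 probe sets in short day mesophyll, 3942 in whole leaf, 2046 in vasculature and 3266 in long day mesophyll. The part of the residual spread in the counts of rhythms was not tested.

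Mesophyll and whole leaf of short days shared timing closely. Of the probe sets rhythmic in mesophyll 87.7% were also rhythmic in whole leaf, and these were 30.2% of those of whole leaf. Among the 2288 rhythmic in both, the peak in mesophyll minus that in whole leaf had a median of -0.147 h. The interaction was called for 294 probe sets (1.35%), with the larger amplitude in mesophyll for 62 and in whole leaf for 232. THI2.2 (AT5G36910), a thionin, had amplitudes of 0.436 in mesophyll and 2.96 in whole leaf, at mesophyll levels of 1.48 to 2.64 near the bottom of the scale (limma adjusted p = 0.000717). AT3G19030 had amplitudes of 0.616 in mesophyll and 2.74 in whole leaf (limma adjusted p = 0.0480), a call lost with the day of harvest as a block (adjusted p = 0.0609) and without any 1 of the 12 mesophyll arrays.

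Some loci cycled in isolated mesophyll and were near the bottom of the scale in whole leaf. AT5G48540 read 9.36, 8.24, 5.20, 3.68, 6.80 and 9.02 on day 10 and 9.49, 8.14, 5.29, 5.45, 8.46 and 8.4 on day 9 in short day mesophyll. In short day whole leaf it read 2.31, 2.80, 1.86, 1.84, 1.96 and 1.97 on day 10 and 2.37, 2.58, 1.85, 1.84, 1.91 and 2.17 on day 9. No mesophyll value overlapped with those of whole leaf, and the amplitude was 2.44 in mesophyll and 0.36 in whole leaf (vector difference 2.2, limma adjusted p = 0.00181). AT1G36622 had amplitudes of 2.28 and 0.03 in these sets (limma adjusted p = 0.00021). PUB19 (AT1G60190), a U-box ubiquitin ligase, had 1.84 in mesophyll and 0.09 in whole leaf, where its mean level was 1.7 (limma adjusted p = 0.0189), a call lost without the day 9 ZT12 array (adjusted p = 0.0529). The 7 wound-response genes were likewise high in isolated mesophyll, with the summed intensities of 3918 to 5740 given above, and at 16.8 to 25.6 in whole leaf. Their part in these differences was not tested.

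Mesophyll and vasculature differed in more probe sets. Of those rhythmic in mesophyll 44.6% were also rhythmic in vasculature, which is 36.8% of those of vasculature. The interaction was called for 1339 (6.13%), with the larger amplitude in mesophyll for 871 and in vasculature for 468. Where both were rhythmic the mesophyll peak was later by a median of 0.539 h. AT1G55960 read 7.36, 7.2, 6.67, 5.28, 6.23 and 7.02 in vasculature on day 10 and 7.51, 6.31, 7.24, 5.89, 6.41 and 6.86 on day 9, against the range of 2.94 to 10.48 in mesophyll given above. Its amplitude was 4.01 in mesophyll and 0.70 in vasculature (vector difference 3.31, limma adjusted p = 1.45e-05). AAPT2 had 2.33 in mesophyll and 0.58 in vasculature (limma adjusted p = 8.13e-05), and SWEET2 2.36 and 0.36 (adjusted p = 5.38e-05). XTH32 had 1.42 in mesophyll and 0.09 in vasculature (limma adjusted p = 0.00404), and TMT1 1.84 and 0.56 (adjusted p = 0.0114). AT4G21215 peaked at 8.00 ± 0.40 h in mesophyll with 2.59 and had 0.28 in vasculature (limma adjusted p = 0.00012) at the same mean level of 5.1 as in whole leaf.

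AT2G47870 had the larger amplitude in vasculature. It had an amplitude of 0.117 in mesophyll, where its 12 values lay between 1.51 and 2.16, and 3.71 in vasculature (limma adjusted p = 0.00545). For GI, with amplitudes of 3.39 in mesophyll and 3.67 in vasculature, no difference was called (vector difference 0.77, limma adjusted p = 0.837), but with the spread of all 72 arrays it was (adjusted p = 0.000665). LHB1B2 peaked at 4.84 h in mesophyll and 2.2 h in vasculature (limma adjusted p = 0.000437).

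**Figure D4:**
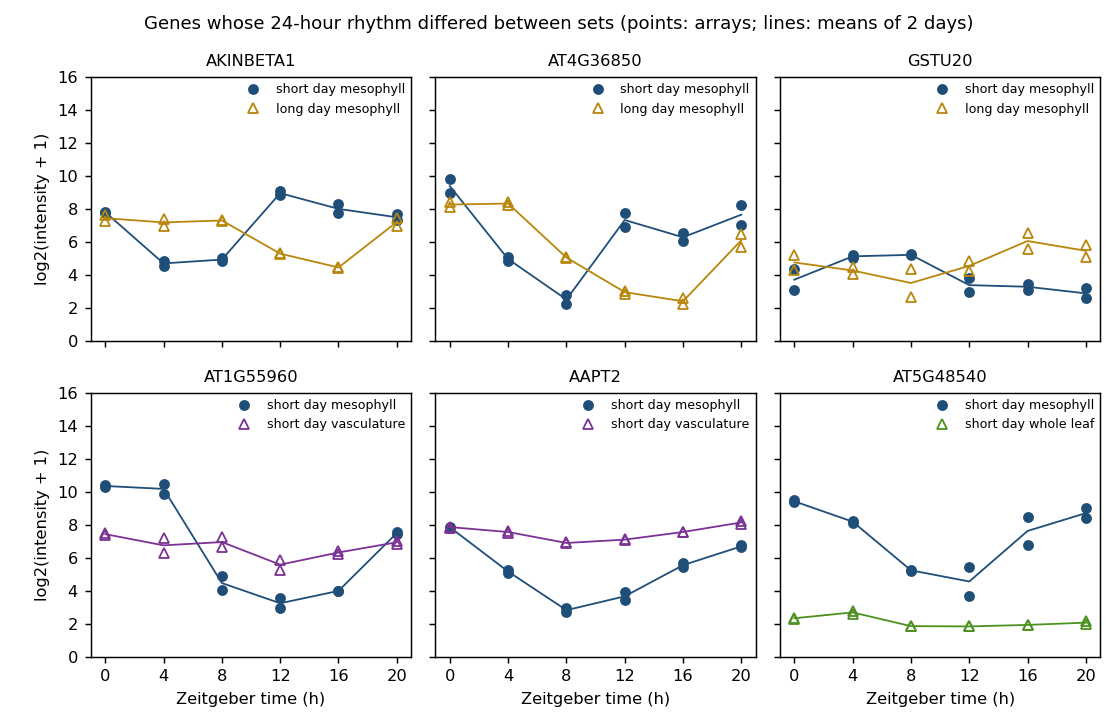
Values of 6 genes on each array of short day mesophyll (filled circles) and of the compared set (open triangles) against Zeitgeber time, as log2(intensity + 1), with lines through the means of both days. AKINBETA1 is low in short day mesophyll at ZT4 and ZT8 and in long day mesophyll at ZT12 and ZT16, and AT5G48540 stays under 3 in whole leaf.

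Fitted peak times differed between short and long day mesophyll. Of the probe sets rhythmic in short day mesophyll 40.4% were rhythmic in long day mesophyll, which is 36.4% of those of long days. Among the 1055 rhythmic in both, the peak came earlier in short days by a median of 1.26 h (difference -1.26 h, quartiles -2.5 and -0.0365 h). It was more than 2 h earlier in short days for 356 and more than 2 h later for 56. The median shift was -2.07 h in the class peaking around ZT8, -1.97 h in that around ZT4 and -1.62 h in that around ZT20. It was -1.09 h around ZT16, -0.684 h around ZT12 and -0.495 h around ZT0. The rhythm difference was called for 124 of the 1055. No test was made of the median shift or of the difference between classes. The fullest 1 h bin of peak times began at ZT18 in short days, with 8.32% of the rhythmic probe sets, and at ZT12 in long days, with 7.55%.

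**Figure D5:**
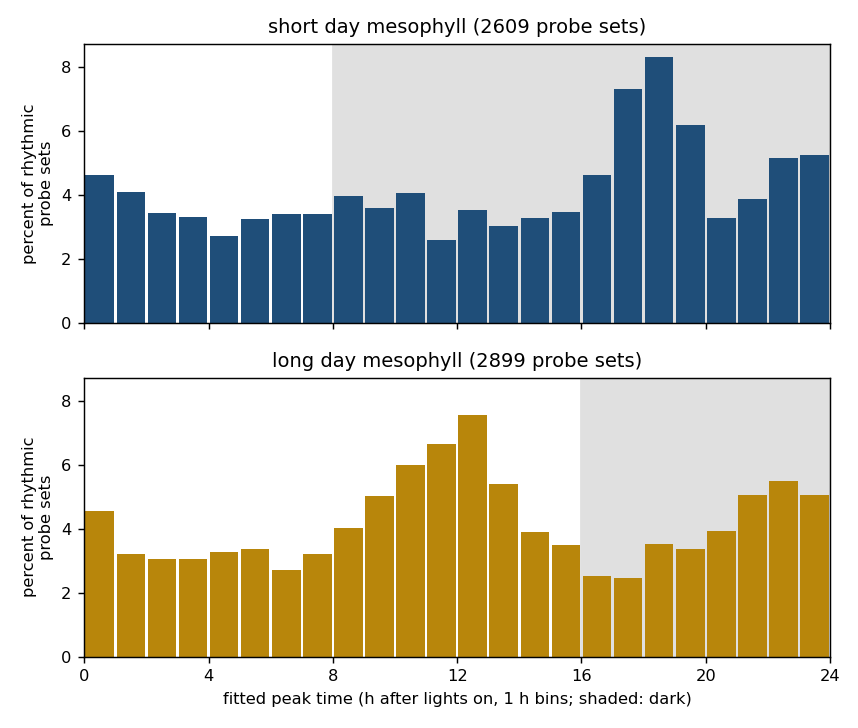
Share of rhythmic probe sets by fitted peak time in 1 h bins, in short day mesophyll (above, 2609 probe sets) and long day mesophyll (below, 2899 probe sets), with darkness shaded. The fullest bin begins at ZT18 under short days and at ZT12 under long days.

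The interaction with day length was called for 504 probe sets (2.31%), with the larger amplitude in short days for 268 and in long days for 236. That count was 133 to 276 without the ZT4 array of either day, the day 9 ZT12, day 10 ZT8 or day 10 ZT16 array, and 760 and 1042 without the day 9 ZT16 and day 10 ZT0 arrays. AKINBETA1 (AT5G21170), a beta subunit of the energy-sensing kinase SnRK1, read 7.85, 4.88, 5.06, 9.09, 8.29 and 7.33 in short days on day 10 and 7.77, 4.53, 4.82, 8.84, 7.73 and 7.68 on day 9. In long days it read 7.25, 7.39, 7.29, 5.28, 4.48 and 6.98 on day 10 and 7.65, 7.0, 7.33, 5.32, 4.44 and 7.45 on day 9. The low times were ZT4 and ZT8 in short days and ZT12 and ZT16 in long days, in both cases times in or at the end of the light. Not all times in the light were low, as long day ZT4 and ZT8 had 7.0 to 7.39. At ZT4, ZT8, ZT12 and ZT16 the arrays of short and long days did not overlap. The fitted peaks were 16.9 h in short days and 2.3 h in long days (vector difference 3.01, limma adjusted p = 0.0159). In short days the cosine itself was not called for AKINBETA1 (limma adjusted p = 0.0385) and the departure from it was (adjusted p = 0.00136).

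AT4G36850 moved in the same sense. Its values were 8.99, 4.84, 2.77, 7.74, 6.05 and 7.06 in short days on day 10 and 9.80, 5.10, 2.27, 6.93, 6.54 and 8.26 on day 9, against 8.14, 8.24, 5.02, 3.06, 2.23 and 5.73 in long days on day 10 and 8.41, 8.43, 5.11, 2.87, 2.59 and 6.49 on day 9. It was lowest at ZT8 in short days and at ZT16 in long days, the time of lights off in each. The vector difference was 3.65 (limma adjusted p = 0.0242), a call lost without either short day ZT4 array (highest adjusted p 0.0547). Its cosine was not called in short days (limma adjusted p = 0.0724). GSTU20 (AT1G78370), a tau-class glutathione transferase, peaked at 5.91 ± 0.63 h in short days and at 18.3 h in long days, with amplitudes of 1.21 and 1.08 (limma adjusted p = 0.00781).

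Cpn60beta2 (AT3G13470), a chloroplast chaperonin subunit, peaked at 6.52 h in short days and 16.0 h in long days, where its rhythm was not called (limma adjusted p of the difference 0.0413), but both this call, without any 1 of 7 arrays, and its rhythm in short days, without any 1 of 8, were lost. It was also 1.08 ± 0.12 lower on day 10 than on day 9 (limma adjusted p = 0.00685), which missed the call without either ZT16 array, at a difference of -0.988. APL3 peaked at 6.45 h in short days and 12.2 h in long days (limma adjusted p = 0.0449), SBE2.2 at 5.92 and 9.6 h (adjusted p = 0.0222) and LHB1B2 at 4.84 and 6.1 h with amplitudes of 0.811 and 1.57 (adjusted p = 0.00781). The APL3 call was lost without any 1 of 6 arrays (both ZT4, both ZT12, day 10 ZT8 and ZT16, highest limma adjusted p 0.096) and that of SBE2.2 without either ZT4 array (0.0537). For GI, PWD and SWEET2 no difference between day lengths was called (vector differences of 0.43, 1.07 and 0.58, limma adjusted p = 0.957, 0.378 and 0.707), nor for DPE1, LHCB4.2, PSBY and PSAN (limma adjusted p = 0.978, 0.232, 0.0897 and 0.435), which does not show that their rhythms were alike. With the spread of all 72 arrays the difference of PWD was called (limma adjusted p = 1.37e-08).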

How the data were processed

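The study measured RNA of 72 seedling samples on Affymetrix arrays, of which the 12 of short day mesophyll are described here. The values used are linear intensities as the authors deposited them, 1 per probe set and array, and the submitters' processing notes name GCRMA, with its version not given in the sources used here. Arrays have no read depth, so their number limits the precision. Intensities were taken as log2(intensity + 1), and probe sets above 2.77, the 40th percentile, in at least 6 of the 72 arrays were kept. Names came from the platform annotation, updated by locus, and 1502 of the 12140 single-gene probe sets had a symbol other than the locus.

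With limma 3.58.1 in R 4.3.3, a time factor, a 24-hour cosine, what the cosine leaves over, differences between neighbouring times, day 10 against day 9 and the interaction of the rhythm with each compared set were fitted on the 12 or 24 arrays concerned, with p-values adjusted by Benjamini-Hochberg over all 21827 probe sets. The code was tested on simulated data. Replicate numbers are the day of harvest, per the labels, so they pair the samples. Day deviations of the times correlated with a median of 0.33 (0.0474 to 0.566), above 0.1 in 13 of 15 pairs of times, and the fit with day as a block was an alternative.

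Named genes, from single-gene probe sets past each call, were the 10 largest amplitudes and the 3 largest per peak class (peak times of the days within 4 h), the 2 largest rises and falls per step with the same sign on both days, the 5 largest ranges beyond the cosine, the 4 largest rhythm differences per comparison, 2 genes each way between days, all clock and photoperiod members, and the leading members of each list. A few others (PORB, psbN, and values of named genes in further comparisons) were chosen after their values were seen. The members and lists were chosen with earlier results of these data known. Promoter motifs were not analysed here. The HAYSTACK software named by the study was not used. Alternatives covered the pseudocount, filter, normalization, block, source of the spread, thresholds and leaving out each array.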

Additional observations from a re-analysis of the deposited data

Results flagged for a closer look

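Rhythms that differed between sets by the interaction test were marked for a closer look. Against short day whole leaf 294 probe sets differed, against short day vasculature 1339 and against long day mesophyll 504. The median residual SD was 0.207 in short day mesophyll, against 0.128, 0.148 and 0.179 in these 3 sets, and its part in the counts was not tested.

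Against whole leaf, the vector differences were 2.52 for THI2.2, 2.45 for AT3G19030, 2.24 for AT1G36622, 2.2 for AT5G48540 and 1.77 for PUB19. AT1G36622 and AT5G48540 cycled in mesophyll and were near the bottom of the scale in whole leaf, while THI2.2 was near it in mesophyll. The 7 wound-response genes stood at summed intensities of 3918 to 5740 in mesophyll and 16.8 to 25.6 in whole leaf, and their part was not tested.

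Against vasculature, the vector differences were 3.60 for AT2G47870, 3.31 for AT1G55960, 2.71 for AT4G21215 and 2.52 for AT5G48540. They were 2.0 for SWEET2, 1.75 for AAPT2, 1.49 for XTH32, 1.28 for TMT1 and 0.744 for LHB1B2. The wound-response sum was 205 to 684 in vasculature. Against long day mesophyll, they were 3.65 for AT4G36850, 3.01 for AKINBETA1, 2.51 for Cpn60beta2 and 2.29 for GSTU20, and 1.40 for APL3, 0.849 for LHB1B2 and 0.741 for SBE2.2. Times of 2 arrays are too small for a test of single arrays that stand apart.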

How the results depend on the processing

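Alternatives were run for 68 amplitudes, 51 step differences, 25 vector differences, 6 ranges and 5 day differences. No step or day difference changed sign and no called peak moved by more than 6 h in them, while vector differences and ranges have no sign. Of the amplitudes recomputed under alternatives other than leaving out an array, 733 kept their side of the threshold, 140 fell below it and 10 rose above it, and of the other values 855 kept it, 32 fell below and 3 rose above. Leaving out arrays, 726 amplitudes and 903 other values kept it, 90 and 140 fell below and 1 other value rose above. With a pseudocount of 4, 83 probe sets differed between days. With no filter, 300 rhythm differences from long day mesophyll were called. With the day of harvest as replicate block, 856 probe sets departed from the cosine, 93 changed at ZT16 against ZT12 and 164 at ZT0 against ZT20. Among the values above the block changed the calls of TIC, AT3G19030 and AAPT2 at ZT20 and no other, and the other counts moved by less than 1.5 times.

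With the spread taken from all 72 arrays, 4580 probe sets changed with time, 2431 departed from the cosine and 6956 were rhythmic (6537 in long day mesophyll). That spread is taken around the mean of each set and time, so it holds no departure from a cosine. The 5 steps from ZT8 against ZT4 onwards had 1101, 1472, 251, 216 and 320 calls, the days 260, and the rhythm differences from whole leaf, vasculature and long day mesophyll 1178, 3897 and 5119. With a minimum difference of 1.5 the first 3 steps had 591, 424 and 436 calls. A rhythm was called for 1 probe set on day 9 alone and for 0 on day 10 alone, by limma with 3 residual degrees of freedom each, and 3573 and 4512 had an unadjusted p under 0.05.

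Leaving out each array in turn gave 1784 to 2519 rhythms, 2027 to 2434 time calls and 174 to 363 departures from the cosine. The 6 steps, from ZT4 against ZT0 to ZT0 against ZT20, had 733 to 1148, 426 to 625, 512 to 876, 9 to 45, 26 to 65 and 36 to 101 calls, the days 61 to 204. Rhythm differences numbered 241 to 298 from whole leaf, 1108 to 1593 from vasculature and 133 to 1042 from long day mesophyll. The cause of these shifts was not tested. A lone array left at a time was assumed to vary like the others. With 2 arrays a time, on successive days, the p-values describe these arrays. Genes near the bottom of the scale have compressed changes, and 9056 tested probe sets carry no gene name here.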
